A study of Caenorhabditis elegans with 68 samples.

Results

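A mutant of the mir-85 seed site in hrg-1 was compared with the wild type in hatched L1 larvae, the first larval stage of the roundworm Caenorhabditis elegans. The mothers of all larvae in this comparison had been exposed to 50 mM NaCl, the lower of the 2 salt levels in the study. The mutant, called gcp100 below, is strain MHE310, whose hrg-1 on chromosome X carries the allele gcp100 with the mir-85 seed match mutated, and the wild type is strain N2. No other allele or agent is named for either strain, and exposure of the mothers to NaCl was shared. Each strain gave 5 RNA-seq libraries at this salt level, made from whole larvae, so the comparison used 10 of the 68 samples of the series, chosen by their labels alone. The series, by its title, concerns microRNAs inherited through yolk and the stress resilience of progeny. Its other samples include the same 2 strains at 300 mM NaCl, with 5 libraries each, and mutants of mir-85 itself.

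The labels name 1 strain for the gcp100 allele, so an effect of the mutated site and of any other difference between MHE310 and N2 cannot be told apart. They call the libraries biological replicates without naming separate cultures, so a p-value here speaks only of the spread among libraries, which may be technical. The deposited values are TPM, which divide a gene's reads by its length and scale each library to a common total. How deeply each library was sequenced cannot be read from them and is unknown. The values summed to between 981815 and 998306 TPM per library, and between 13287 and 14237 genes had at least 1 TPM. In RNA from whole larvae, fewer cells of a type and less RNA per cell cannot be told apart.

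Nematodes of this kind cannot make heme and take it up from food through the intestine. HRG-4 brings heme in across the gut cell surface, HRG-1 moves it out of endosomes and lysosome-related compartments, and MRP-5 exports it towards other tissues. HRG-3 is a secreted carrier that delivers maternal heme to other tissues and to embryos, and HRG-2 acts in heme use in the hypodermis. A microRNA pairs through its seed, a short stretch near its 5′ end, with a matching site in the 3′ untranslated region of a messenger RNA, and thereby lowers the stability or translation of that messenger. In gcp100 the mir-85 gene is intact and the matching site in hrg-1 is changed, so the comparison asks what that site does to hrg-1 and to the rest of the transcriptome.

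hrg-1 (WBGene00019830) lies on the minus strand of chromosome X at 4008057 to 4016221 in the WBcel235 assembly. The annotation gives it 3 transcripts, and its 3′ untranslated region spans 4008057 to 4008234. The labels do not give the position of the edited bases. mop-25.1, which encodes a MO25-like scaffold protein, lies on the plus strand at 4012219 to 4022209 and overlaps the 5′ part of hrg-1. The annotated exons of hrg-1 and mop-25.1 do not overlap. The libraries were strand-specific per the labels, but use of strand in the counting is not given in the sources used here. Reads of these genes that fall outside annotated exons may therefore not be fully separated.

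At 50 mM hrg-1 did not pass the test between the strains, and its levels overlapped almost completely. It stood at 16.7, 22.4, 17.3, 11.4 and 8.72 TPM in gcp100 replicates 1 to 5, against 16.04, 25.5, 32.7, 18.8 and 8.01 TPM in N2 replicates 1 to 5. The highest 2 libraries and the lowest library were N2 libraries, and replicate 5 was the lowest of its strain in both. The means were 15.3 ± 5.37 TPM in gcp100 and 20.2 ± 9.39 TPM in N2 (SD, n = 5 each). On log2(TPM + 1), the scale of all fold changes below, gcp100 stood at -0.32 relative to N2 (SE 0.35, limma adjusted p = 1.0), with a 95% interval of -1.08 to 0.45.

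Libraries with the same replicate number varied together, so the comparison was also made within pairs. hrg-1 differed by 0.05, -0.18, -0.88, -0.68 and 0.11 in pairs 1 to 5, and was higher in gcp100 in 2 of 5 pairs. With the replicate number as a block the standard error fell to 0.16 and the 95% interval was -0.68 to 0.05 (unadjusted p = 0.0842, limma adjusted p = 0.736). The exact two-sided permutation test over the 10 libraries gave p = 0.421, and the exact sign-flip test over the 5 pairs gave p = 0.25, where 0.0625 is the smallest it allows. The interval from the blocked fit includes no rise of hrg-1 in gcp100 above 0.05 on the log2 scale, while the unblocked interval allows one of 0.45. When 1 library was left out at a time the difference ranged from -0.59 without N2 replicate 5 to -0.11 without N2 replicate 3.

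Of the 7 heme transport and trafficking genes in the table, 4 passed the filter of at least 1 TPM in at least 5 libraries, all 4 had negative differences, and 0 passed the test. Their median was -0.17. Over all 13862 genes tested the median was -0.06, and 31.8% of genes had positive differences. With the libraries rescaled by trimmed means of M values (TMM) the median of all genes was -0.0028 and 48.9% were positive. After TMM rescaling all 4 heme genes were still negative, with a median of -0.12. Counts of positive differences below are given for both scalings. hrg-2 had 6.99, 4.18, 5.80, 5.14 and 3.36 TPM in gcp100, against 5.55, 4.70, 8.02, 7.70 and 4.58 TPM in N2 (log2 difference -0.22, SE 0.21). It was lower in gcp100 in 4 of 5 pairs, and the groups overlapped. mrp-5 had 33.2, 33.9, 40.6, 19.3 and 21.9 TPM in gcp100, against 30.1, 37.7, 48.2, 26.3 and 20.8 TPM in N2 (log2 difference -0.12, SE 0.25). In both strains mrp-5 was lowest in replicates 4 and 5. hrg-6, a paralog of hrg-1 and hrg-4, stood between 0.54 and 2.04 TPM in gcp100 and between 1.09 and 2.11 TPM in N2 (log2 difference -0.07, SE 0.22).

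The gut importer hrg-4, its paralog hrg-5 and the secreted carrier hrg-3 were below the filter. hrg-4 reached at most 1.42 TPM in gcp100 and 1.13 TPM in N2, and hrg-5 at most 0.53 TPM in gcp100 and 0.93 TPM in N2. hrg-3 had 0.62, 0.54, 0.38, 0.61 and 0.75 TPM in gcp100, against 0.20, 0, 1.21, 0.18 and 0 TPM in N2. Per unit of length, mrp-5 and hrg-1 were thus the most abundant transcripts of this list in larvae of both strains.

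**Figure D1:**
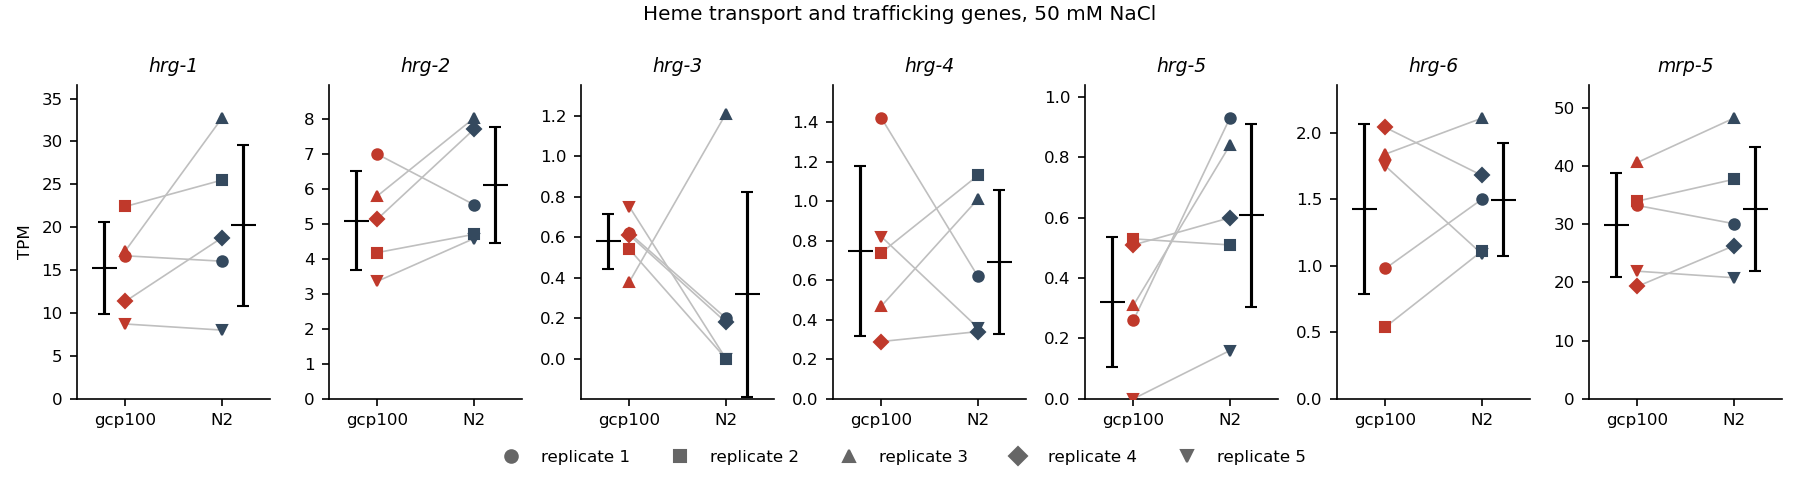
Levels of the 7 heme transport and trafficking genes in TPM (y axis, own scale per gene) in gcp100 and N2 larvae at 50 mM. Points are libraries, symbols and grey lines give the replicate number, and bars are the mean and SD (n = 5 each); hrg-1 ranged from 8.72 to 22.4 TPM in gcp100 and from 8.01 to 32.7 TPM in N2.

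Across the transcriptome no gene passed the test in either direction. Of 13862 genes tested, 0 were higher and 0 were lower in gcp100 than in N2 at an adjusted p under 0.05 (limma, 0% of the genes tested in each direction), and 0.240 was the smallest adjusted p. Before adjustment 193 genes had a p under 0.05 (1.39%), of which 66 were higher (0.476%) and 127 lower in gcp100 (0.916%). With the replicate block 0 genes passed in either direction and 0.234 was the smallest adjusted p. The count at an unadjusted p under 0.05 was then 947 genes (6.83%), of which 344 were higher (2.48%) and 603 lower (4.35%).

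The differences were small for most genes. The absolute log2 difference had a median of 0.098, and 90% of genes lay within 0.309 and 99% within 0.847. The 95% interval lay within a 2-fold difference in both directions for 11982 genes (86.4%), and for 13039 genes (94.1%) with the block. Among the 8126 genes with a group mean of at least 10 TPM, 32 differed by more than 1 on the log2 scale. Of these 14 were snRNA or snoRNA genes, 4 ncRNA genes, 1 an rRNA pseudogene, and 13 protein-coding genes. The RNA had been size-selected above 200 nucleotides, so short RNA species sit at the edge of what the libraries hold, and some snRNA copies shared identical values.

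**Figure D2:**
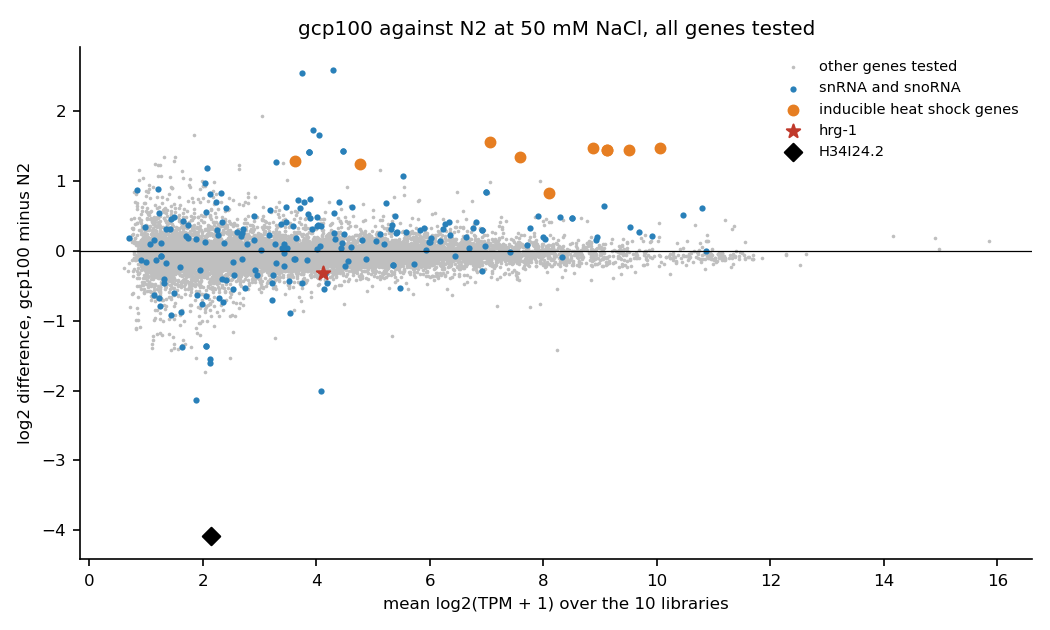
Log2 difference between gcp100 and N2 (y axis) against mean log2(TPM + 1) over the 10 libraries (x axis) for the 13862 genes tested at 50 mM. Grey points are single genes, and the coloured symbols mark hrg-1 at -0.32, H34I24.2 at -4.08, inducible heat shock genes, and snRNA and snoRNA genes.

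The protein-coding gene with the largest difference was H34I24.2 (WBGene00019261), at 2842044 to 2845197 on the plus strand of chromosome III, for which the files give no function. It was at 0.21, 0.19, 0, 0 and 0 TPM in gcp100, against 38.5, 24.9, 46.2, 4.33 and 6.75 TPM in N2. It passed the filter on low values only through the 5 N2 libraries, so the absence of overlap is no separate evidence. In all 33 genes had no overlap, 7 higher (0.0505%) and 26 lower in gcp100 (0.188%). The log2 difference was -4.08 (SE 0.56, limma adjusted p = 0.240, and 0.234 with the block), and it was negative in 5 of 5 pairs, which the lack of overlap fixes. The size of a difference against values at 0 depends on the pseudocount. With 0.1 in place of 1 it was -6.76 (limma adjusted p = 0.0208, and 0.0167 with the block), and H34I24.2 was the 1 gene past the threshold (0.00721% of the genes tested). In the other 24 of the 26 alternatives at 50 mM it either did not pass or was not tested. It missed the filter at 5 TPM, and it missed the filter of each fit without 1 N2 library or without 1 pair.

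The same held in the separate libraries at 300 mM. There H34I24.2 was at 0.11, 0, 0, 0.15 and 0 TPM in gcp100, against 30.2, 58.7, 45.3, 6.44 and 1.48 TPM in N2 (log2 difference -4.05, SE 0.80, limma adjusted p = 0.996). Its level did not follow the wild-type label elsewhere in the series. In another set of wild-type larvae, also labelled N2, it was between 0.03 and 0.97 TPM, and in gcp109, a deletion in mir-85, it was between 0 and 0.33 TPM. In larvae homozygous or heterozygous for n4117, another mir-85 allele, it was between 3.14 and 92.9 TPM. Those larvae belong to other sets of samples, so strain and set cannot be told apart. In 8 of 14 groups every library was at 1 TPM or more, and in the other 6 every library was below 1 TPM. The differences of the 4 tested genes within 10 kb of it lay between -0.24 and 0.13, and 0 passed.

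**Figure D3:**
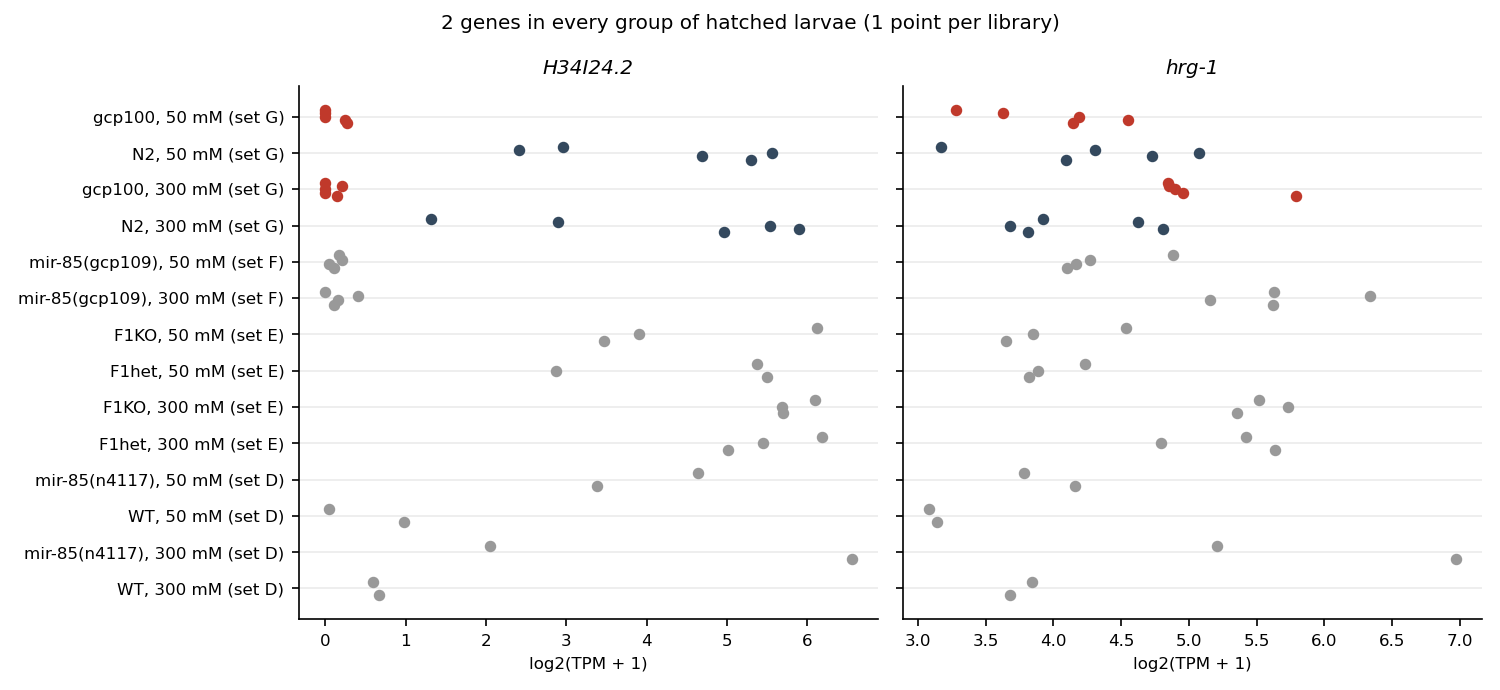
Levels of H34I24.2 and hrg-1 as log2(TPM + 1) (x axis) in each group of hatched larvae (rows), 1 point per library, with gcp100 in red and N2 in dark blue; the set letters stand for samples named alike in the labels. H34I24.2 was at or near 0 in gcp100 and at 1.48 TPM or more in every N2 library of set G, but under 1 TPM in the wild-type larvae of set D, while hrg-1 overlapped between the strains at 50 mM.

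Genes around the edited locus did not pass the test. Within 10 kb of hrg-1 the table held 5 other genes, of which 3 were tested. mop-25.1 had 120, 126, 119, 116 and 125 TPM in gcp100, against 105, 145, 126, 120 and 111 TPM in N2 (log2 difference 0.01, SE 0.10). R02E12.5 stood at 0.16 (SE 0.24) and R02E12.4 at -0.30 (SE 0.17), and their groups overlapped. acr-10, an acetylcholine receptor subunit gene, reached at most 1.34 TPM in any library, and the ncRNA R02E12.9 was listed at 0 in all but 1 library; neither passed the filter. Within 100 kb there were 68 other genes, of which 26 were tested with differences between -0.54 and 0.43, a median of -0.09, and 0 at an unadjusted p under 0.05. Chromosome X as a whole had a median of -0.07, and chromosomes I to V lay between -0.06 and -0.05.

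mir-85 lies at 8393553 to 8393658 on the plus strand of chromosome II, inside the span of F49E12.8 on the opposite strand. F49E12.8 had 4.05, 3.27, 3.82, 4.34 and 3.88 TPM in gcp100, against 6.26, 2.63, 4.97, 5.16 and 4.63 TPM in N2 (log2 difference -0.20, SE 0.18). Both the lowest and the highest of the 10 values were from N2 libraries. Of 13 tested genes of microRNA processing and action, 4 had positive differences, 8 after TMM rescaling, and 0 passed the test. The Argonautes alg-1 (-0.12, SE 0.13) and alg-2 (-0.05, SE 0.14), the processing factor pash-1 (-0.17, SE 0.20), the exonuclease xrn-1 (-0.10, SE 0.11) and the cofactor nhl-2 (0.09, SE 0.11) all lay within 0.2 of 0.

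Among genes for heme-binding proteins, differences were small too. Of 33 globin genes, all of which were tested, 11 had positive differences, 17 after TMM rescaling, the median was -0.06, and 0 passed the test. Globins bind oxygen and other ligands through heme. glb-4 was at 9.23, 9.66, 9.78, 10.2 and 7.48 TPM in gcp100, against 10.7, 12.58, 10.3, 11.7 and 15.1 TPM in N2. Its groups did not overlap, and its log2 difference was -0.34 (SE 0.13, unadjusted p = 0.0219, limma adjusted p = 1.0). glb-28 stood at -0.42 (SE 0.15, unadjusted p = 0.0209), was lower in gcp100 in 4 of 5 pairs, and its groups overlapped. glb-8 stood at -0.34 (SE 0.16) and glb-5 at -0.38 (SE 0.26).

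Of 10 tested genes for heme-binding enzymes, 4 had positive differences, 6 after TMM rescaling, and 0 passed the test. The peroxisomal catalase gene ctl-2 showed how strongly the replicate number weighed. It had 72.3, 72.3, 68.3, 23.9 and 23.6 TPM in gcp100, against 79.9, 86.0, 84.6, 37.7 and 34.9 TPM in N2. Replicates 4 and 5 were low in both strains, and the replicate number held 91.1% of its variation. It was lower in gcp100 in 5 of 5 pairs (log2 difference -0.37, SE 0.42, and SE 0.09 with the block, unadjusted p = 0.00306 and limma adjusted p = 0.726 with the block). The cytochrome c1 gene cyc-1 (-0.18) and the cytochrome c gene cyc-2.1 (-0.16) were also lower in 5 of 5 pairs, as were 732 of all genes tested (5.28%), against 271 that were higher in all pairs (1.95%).

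Genes for iron and other metals gave 3 positive differences among 13 tested, 8 after TMM rescaling, a median of -0.01, and 0 that passed. The zinc transporter gene cdf-2 stood at -0.33 (SE 0.24, and 0.14 with the block). The intestinal metallothionein gene mtl-2 had 17.9, 3.23, 15.9, 14.5 and 6.98 TPM in gcp100, against 14.6, 0.99, 12.7, 4.96 and 8.68 TPM in N2 (log2 difference 0.55, SE 0.59). It was higher in gcp100 in 4 of 5 pairs, and replicate 2 was the lowest in both strains. Among 18 tested subunits of the proton pump that acidifies endosomes and lysosomes, 3 had positive differences, 11 after TMM rescaling, with a median of -0.05, and vha-7 at -0.23 (SE 0.16) had the smallest p. Among 17 genes of lysosomes and gut granules 3 had positive differences, 6 after TMM rescaling, with a median of -0.11. glo-1, a Rab gene needed to form gut granules, stood at -0.36 (SE 0.28) and was lower in gcp100 in 5 of 5 pairs.

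Beside H34I24.2, 13 genes had a group mean of at least 5 TPM, no overlap between the strains and the smallest p of their direction. None of the 13 passed the test. Lack of overlap was a condition of being named and fixes the sign in all 5 pairs, so neither is separate evidence. There were 4 such genes higher in gcp100. The glutathione peroxidase gene gpx-1 had 33.8, 46.5, 34.3, 45.4 and 44.2 TPM in gcp100, against 26.2, 31.4, 26.5, 32.2 and 32.1 TPM in N2 (log2 difference 0.44, SE 0.12, unadjusted p = 0.00466). It was higher in 5 of 5 pairs by 0.35 to 0.55, which gave an SE of 0.07 and an adjusted p of 0.393 with the block. At 300 mM its difference was -0.10 (SE 0.34). C31H5.7 (0.70, SE 0.20), the ncRNA F58H1.11 (0.99, SE 0.23) and the mitochondrial ribosomal protein gene mrps-24 (0.19, SE 0.08) were the others, and their differences at 300 mM were -0.02, 0.16 and -0.27. With the block F58H1.11 had an SE of 0.12 (limma unadjusted p = 5.05e-05, adjusted p = 0.234).

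The other 9 genes were lower in gcp100. The ncRNA T28C12.8 had 3.61, 2.37, 3.29, 0.67 and 2.45 TPM in gcp100, against 9.76, 5.33, 9.69, 9.44 and 9.19 TPM in N2 (log2 difference -1.53, SE 0.28, limma adjusted p = 0.843). Its lack of overlap was a condition of being named here. The mitochondrial isocitrate dehydrogenase subunit gene idhg-2 had 73.2, 67.1, 65.4, 60.8 and 56.8 TPM in gcp100, against 82.2, 82.3, 74.6, 100.4 and 74.1 TPM in N2 (log2 difference -0.35, SE 0.11). The cuticle collagen gene col-103 averaged 284.9 ± 41 TPM in gcp100 and 368.9 ± 34.7 TPM in N2 (log2 difference -0.38, SE 0.12, n = 5 each). The rest were glb-4, R05D8.7 (-0.53, SE 0.13), F54F2.9 (-0.34, SE 0.11), B0511.7 (-0.22, SE 0.09) and the ncRNAs T19F4.2 (-0.77, SE 0.20) and C44H4.10 (-0.61, SE 0.19). At 300 mM C44H4.10 (-0.73), T28C12.8 (-0.55), R05D8.7 (-0.54), F54F2.9 (-0.41), B0511.7 (-0.32) and col-103 (-0.01) were negative, glb-4 (0.50) and idhg-2 (0.29) were positive, and T19F4.2 was below the filter.

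Inducible heat shock genes had some of the largest differences among protein-coding genes, although 0 passed the test. These chaperones are made in large amounts when proteins misfold. Of the 20 heat shock and chaperone genes, all of which were tested, 14 had positive differences, with a median of 0.19 against -0.06 over all genes. After TMM rescaling 16 were positive, with a median of 0.25. At an unadjusted p under 0.05, 5 of the 20 were higher and 0 lower in gcp100, where 0.476% of all genes were higher. With the block 9 were higher and 0 lower, where 2.48% of all genes were higher. The small heat shock gene hsp-16.2 had 158, 204, 249, 216 and 346 TPM in gcp100, against 109, 21.7, 272, 20.0 and 192 TPM in N2 (log2 difference 1.56, SE 0.69, unadjusted p = 0.0456, limma adjusted p = 1.0). N2 replicates 2 and 4 were far below the other 8 libraries, and the remaining N2 libraries lay within the range of gcp100 or just below it.

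N2 replicates 2 and 4 were also the lowest libraries in several related genes. hsp-16.1 had 1309, 520, 1483, 1254 and 1907 TPM in gcp100, against 954, 65.7, 1666, 131 and 1180 TPM in N2 (log2 difference 1.44, SE 0.85). hsp-16.41 had 201, 361, 298, 267 and 456 TPM in gcp100, against 158, 51.7, 335, 32.5 and 266 TPM in N2 (log2 difference 1.35, SE 0.59). hsp-16.48 and hsp-16.49 held identical values, so their reads cannot be assigned to either copy, and each stood at 1.44 (SE 0.58). Both enter the counts of the heat shock list, so these counts are not of independent genes. hsp-16.11 stood at 1.25 (SE 0.62); as a near copy of hsp-16.1 it is uncertain in the same way.

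The inducible chaperone genes of other families named here also stood higher in gcp100. Not every member of the heat shock list did, since 14 of the 20 had positive differences. hsp-70 lay between 14.7 and 24.3 TPM in gcp100, against 9.19 and 27.8 TPM in N2 replicates 1 and 3, 16.24 TPM in N2 replicate 5 and under 2 TPM in N2 replicates 2 and 4 (log2 difference 1.29, SE 0.65). The Hsp70-family genes F44E5.4 and F44E5.5, which lie side by side, were named after their values were seen and stood at 1.48 (SE 0.65) and 1.47 (SE 0.67). hsp-110 stood at 0.83 (SE 0.40), and hsp-4, the chaperone of the endoplasmic reticulum, at 0.46 (SE 0.20). For 8 of the 20 genes N2 replicates 2 and 4 were the lowest 2 of the 10 libraries. The median of the 20 genes was 0.13, 0.42, -0.04, 0.59 and -0.05 in pairs 1 to 5, against 0.08, -0.12, 0.01, -0.14 and -0.10 over all genes. The group thus stood higher in gcp100 mainly in pairs 2 and 4.

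Leaving out single libraries moved these values but not their sign. The difference of hsp-16.2 ranged from 1.09 without N2 replicate 4 to 2.01 without N2 replicate 3. That of hsp-16.48 ranged from 1.01 to 1.79 with the same libraries left out, and that of hsp-16.1 from 0.76 without N2 replicate 2 to 1.92 without N2 replicate 3. Transcripts of yolk protein genes were also uneven over libraries. vit-2 had 0.25, 0.08, 0.21, 5.58 and 0.08 TPM in gcp100, against 0.09, 10.98, 0.16, 4.23 and 0.07 TPM in N2. vit-2 was thus highest in N2 replicates 2 and 4 and gcp100 replicate 4. Major sperm protein and related genes (msp and ssp) summed to between 4.54 and 5.06 TPM in gcp100, against 8.85 and 6.67 TPM in N2 replicates 2 and 4 and at most 5.30 TPM in the other N2 libraries. The part of either in the heat shock values was not tested.

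In the separate libraries at 300 mM the small heat shock genes also stood higher in gcp100. hsp-16.1 had 516, 310, 624.8, 305 and 214 TPM in gcp100, against 67.5, 110, 73.1, 165 and 83.8 TPM in N2, with no overlap (log2 difference 1.94, SE 0.33, limma adjusted p = 0.864). hsp-16.2 had 96.4, 140, 78.3, 48.0 and 78.8 TPM in gcp100, against 14.9, 60.8, 16.21, 24.8 and 22.8 TPM in N2 (log2 difference 1.74, SE 0.39). Of the whole list of 20 genes, 13 were higher in gcp100 at 300 mM, with a median of 0.49, and 11 had the same direction at both levels (55%, against 52.7% of all genes). Of the 9 heat shock genes with an unadjusted p under 0.05 in the blocked fit at 50 mM, 8 were higher in gcp100 at 300 mM (88.9%). The same selection over all genes gave 309 that were higher at 50 mM, of which 175 were higher at 300 mM (56.6%). The median of the 9 was 1.35 at 50 mM and 1.64 at 300 mM, against 0.36 and 0.08 for the 309. hsp-4 stood at -0.75 at 300 mM. Mean levels of hsp-16.1 and hsp-16.2 at 300 mM were below those at 50 mM in both strains. At 300 mM 5 of the 10 libraries, 3 of gcp100 and 2 of N2, stood apart with a median correlation to their group under 0.9. This cutoff was set after the data were seen. Without these libraries the median of the 9 heat shock genes was 1.45.

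**Figure D4:**
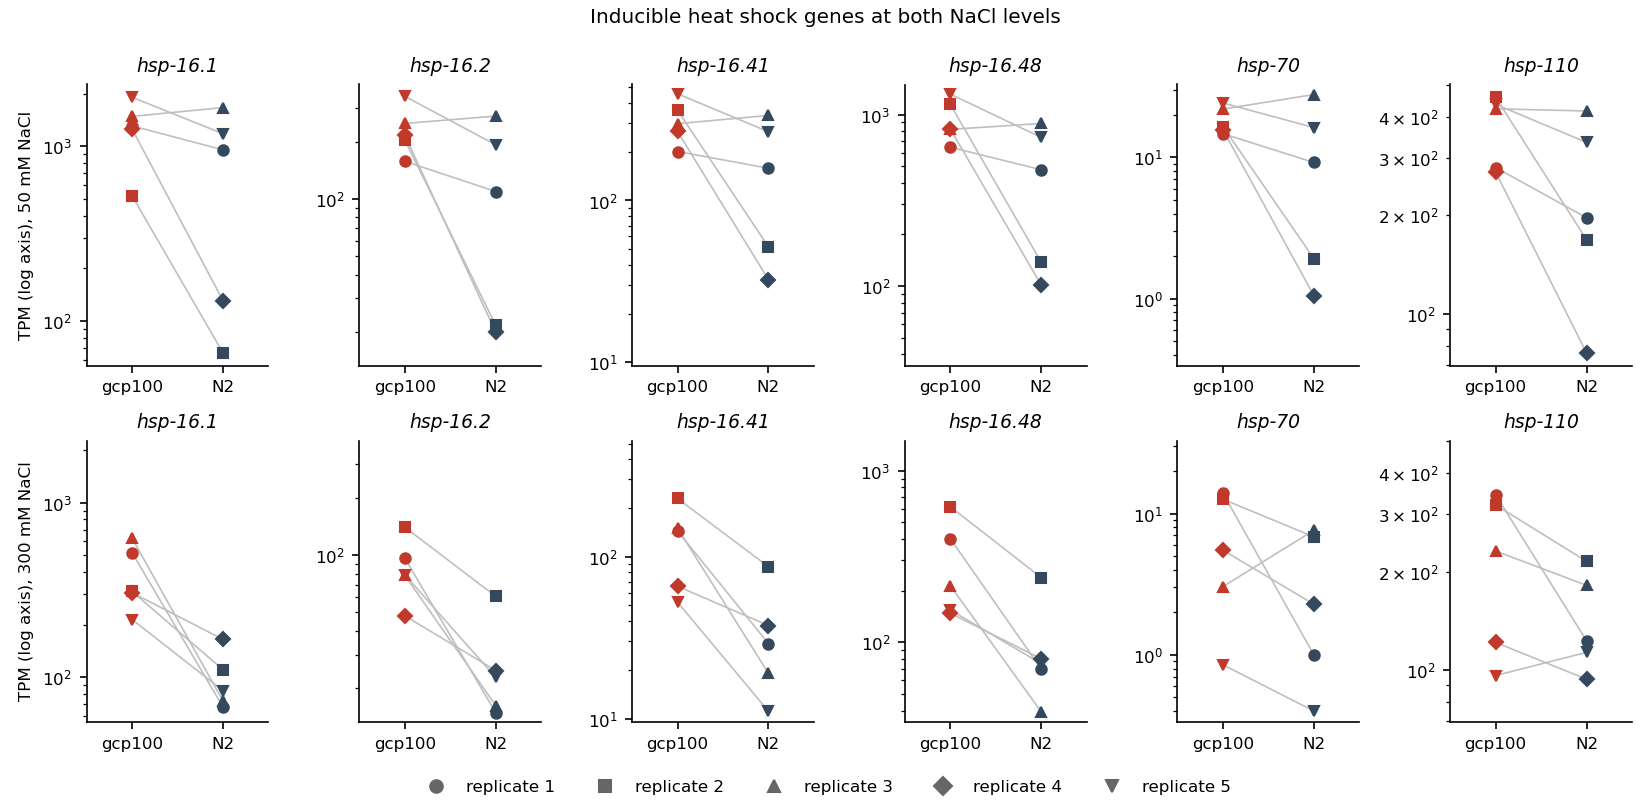
Levels of 6 inducible heat shock genes in TPM (y axis, logarithmic) in gcp100 and N2 larvae at 50 mM (upper row) and 300 mM (lower row). Points are libraries, and symbols and grey lines give the replicate number; at 50 mM N2 replicates 2 and 4 are the lowest points in each of these genes, and hsp-16.1 does not overlap between the strains at 300 mM.

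Over all genes, a difference at 50 mM said little about the difference at 300 mM. Of 12929 genes tested at both levels, 52.7% differed in the same direction. Of the genes with an unadjusted p under 0.05 at 50 mM that were tested at both levels, 31 of 50 that were higher in gcp100 were also higher at 300 mM (62%, against 44.7% of all genes). Of 99 that were lower, 54 were also lower at 300 mM (54.5%), where 7148 of the 12929 genes were lower. With the block, 175 of 309 that were higher at 50 mM were also higher at 300 mM (56.6%). Of 557 that were lower with the block, 257 were also lower at 300 mM (46.1%). At 300 mM 0 of 13684 genes passed the test in either direction (limma, 0%), with 173 at an unadjusted p under 0.05, of which 64 were higher (0.468%) and 109 lower in gcp100 (0.797%). No gene passed the test of the difference between the 2 salt levels either (0 of 15275 genes, 187 at an unadjusted p under 0.05).

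At 300 mM hrg-1 did not overlap between the strains, unlike at 50 mM. It had 54.3, 30.1, 28.9, 27.97 and 27.8 TPM in gcp100, against 13.1, 27.1, 11.8, 23.7 and 14.2 TPM in N2. The difference of the strain differences was 1.21 (SE 0.48), with a limma adjusted p of 1.0 over all genes. The permutation of strain labels within each salt level over all 63504 arrangements gave p = 0.0282. That permutation assumes no strain difference at either level, so it does not single out a change between the levels. It also ignores the replicate numbers. The difference at 300 mM itself was 0.90 (SE 0.32, limma adjusted p = 0.996) over the 10 libraries. Without the 5 libraries that stood apart, which leaves 2 gcp100 and 3 N2 libraries, the difference was 0.49 (SE 0.33). The cutoff of 0.9 for standing apart was set after the data were seen. gcp100 replicates 1 and 5 and N2 replicate 5 missed it narrowly, at 0.897, 0.898 and 0.899, and gcp100 replicate 4 was kept at 0.905. The highest hrg-1 value, in gcp100 replicate 1, was among those left out.

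The FMRFamide-like neuropeptide genes, which encode signalling peptides of neurons, stood lower in gcp100 as a group. Of 30 tested, 1 had a positive difference, 5 after TMM rescaling, the median was -0.21, and 0 passed the test. At an unadjusted p under 0.05, 0 were higher and 1 was lower in gcp100, where 0.916% of all genes were lower. With the block 0 were higher and 11 lower, where 4.35% of all genes were lower. flp-19 had 79.8, 52.4, 65.1, 52.2 and 55.3 TPM in gcp100, against 91.2, 56.3, 84.0, 79.3 and 79.9 TPM in N2 (log2 difference -0.35, SE 0.16, limma adjusted p = 1.0). It was lower in 5 of 5 pairs. flp-17 (-0.40, SE 0.18), flp-3 (-0.36, SE 0.18) and flp-12 (-0.34, SE 0.17) had the next smallest p.

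The neuropeptide difference came mostly from pairs 4 and 5. The median over the 30 genes was 0.06, -0.02, -0.12, -0.39 and -0.50 in pairs 1 to 5. Over all genes it was 0.08, -0.12, 0.01, -0.14 and -0.10 in the same pairs. Summed over 11 markers of neurons, which included egl-3 and sbt-1 of peptide processing, the libraries held 3420, 3045, 2884, 2718 and 2745 TPM in gcp100, against 3054, 3439, 2938, 3490 and 3560 TPM in N2. All 11 markers had negative differences, 10 of them after TMM rescaling, with a median of -0.14, and 0 passed the test. The part of the neuronal share in the neuropeptide values was not tested. At 300 mM the median over the neuropeptide genes was 0.23.

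Genes of the mitochondrial genome stood higher in gcp100 in pairs 2, 4 and 5 but not in pairs 1 and 3. Their median was -0.15, 0.46, -0.04, 0.34 and 0.13 in pairs 1 to 5, against 0.08, -0.12, 0.01, -0.14 and -0.10 over all genes. Of 12 tested, 9 had positive differences, 11 after TMM rescaling, the median was 0.23, and 0 passed the test. At an unadjusted p under 0.05, 0 were higher or lower without the block, and 4 were higher (of all genes 2.48%) and 0 lower with it. The cytochrome c oxidase subunit gene ctc-2 had 2848, 2012, 1903, 4891 and 4407 TPM in gcp100, against 2348, 1376, 1752, 3744 and 3178 TPM in N2 (log2 difference 0.36, SE 0.35, and SE 0.08 with the block). The ATP synthase subunit gene atp-6 stood at 0.45 (SE 0.48, and 0.11 with the block). Both were higher in 5 of 5 pairs, and both were highest in replicates 4 and 5 of either strain. The NADH dehydrogenase subunit genes nduo-3 and nduo-6 stood at 0.43 (SE 0.59) and 0.35 (SE 0.41). At 300 mM the median of the 12 was -0.02.

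The other gene groups had small median differences. Of 64 tested collagen genes 18 had positive differences, 25 after TMM rescaling, with a median of -0.08. At an unadjusted p under 0.05, 0 were higher and 4 lower in gcp100, where 0.916% of all genes were lower. These were col-154 (-0.54, SE 0.17), col-103, col-98 (-0.42, SE 0.15) and col-155 (-0.39, SE 0.16). With the block 0 collagen genes were higher and 7 lower, where 4.35% of all genes were lower. Of 15 tested genes of the osmotic response 7 had positive differences, 12 after TMM rescaling, with a median of -0.01. Among them the epidermal antimicrobial peptide gene nlp-29 had 380, 203, 332, 376 and 229 TPM in gcp100, against 553, 93.9, 242, 134 and 288 TPM in N2 (log2 difference 0.43, SE 0.42). All 10 tested aquaporin genes had negative differences, but 2 were positive after TMM rescaling, with a median of -0.08 and aqp-7 at -0.20 (SE 0.22). The median was -0.11 for 64 histone genes, -0.08 for 74 ribosomal protein genes, -0.13 for 88 C-type lectin genes and -0.02 for 197 nuclear hormone receptor genes. After TMM rescaling these medians were -0.05, -0.02, -0.09 and 0.04, and 0 genes of these lists passed the test.

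The detoxification lists held few genes with an unadjusted p under 0.05. Of 96 tested genes of oxidative stress and detoxification 1 was higher and 1 lower in gcp100. Of 43 cytochrome P450 genes 1 was higher and 0 lower. Over all genes tested 0.476% were higher and 0.916% lower. The list members named here were among those with the smallest p. The glutathione S-transferase gene gst-9 had 3.16, 4.30, 4.16, 4.53 and 3.39 TPM in gcp100, against 3.04, 2.21, 2.05, 2.96 and 2.06 TPM in N2, with no overlap (log2 difference 0.51, SE 0.15, unadjusted p = 0.00642). The cytochrome P450 gene cyp-36A1 stood at 0.73 (SE 0.25) and was higher in 5 of 5 pairs, and the glucuronosyltransferase gene ugt-45 stood at -0.31 (SE 0.13). Over 96 genes of oxidative stress and detoxification the median was -0.05, and over 43 cytochrome P450 genes -0.07. F45D11.14, named after its values were seen and without a stated function, had 41.4, 24.16, 47.2, 17.98 and 12.5 TPM in gcp100, against 81.3, 26.5, 87.4, 90.2 and 47.9 TPM in N2 (log2 difference -1.22, SE 0.42, unadjusted p = 0.0148).

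The libraries carried the marker genes of larval tissues, and their replicate number mattered more than their strain. Markers of intestine, pharynx, body wall muscle, hypodermis and neurons were present in every library, with 0 markers of these lists listed at 0 throughout, although 6 of the 11 hypodermis markers and 9 of the 11 pharynx markers passed the filter. Of 68 sperm genes 5 passed the filter, and the list summed to between 28.9 and 33.1 TPM in gcp100 and between 29.1 and 37.5 TPM in N2. Over the genes tested, the replicate number held 71.1% of the sum of squares of log2(TPM + 1), the strain 6.82% and the remainder 22.04%. Such shares, here and for single genes, are not adjusted for there being more replicate numbers than strains. Libraries of the same number correlated at r = 0.983 to 0.990 across strains, and those of different numbers within a strain at 0.970 to 0.985.

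Replicates 4 and 5 were low in gut and pharynx transcripts in both strains. Intestine markers summed to 4991, 4494, 7198, 2381 and 2390 TPM in gcp100, against 5375, 5137, 7044, 2665 and 2576 TPM in N2. Pharynx markers summed to 2682, 2017, 2384, 619 and 813 TPM in gcp100, against 2555, 1580, 2586, 781 and 1437 TPM in N2. The pharyngeal myosin gene myo-2 had 752, 619, 729, 5.36 and 55.6 TPM in gcp100, against 707, 465, 822, 35.8 and 200 TPM in N2, so the number held 90.5% of its variation. hrg-1, a gene of the intestine, had 80.8% of its variation with the replicate number and 7.41% with the strain. The part of the intestinal share in the hrg-1 values was not tested.

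**Figure D5:**
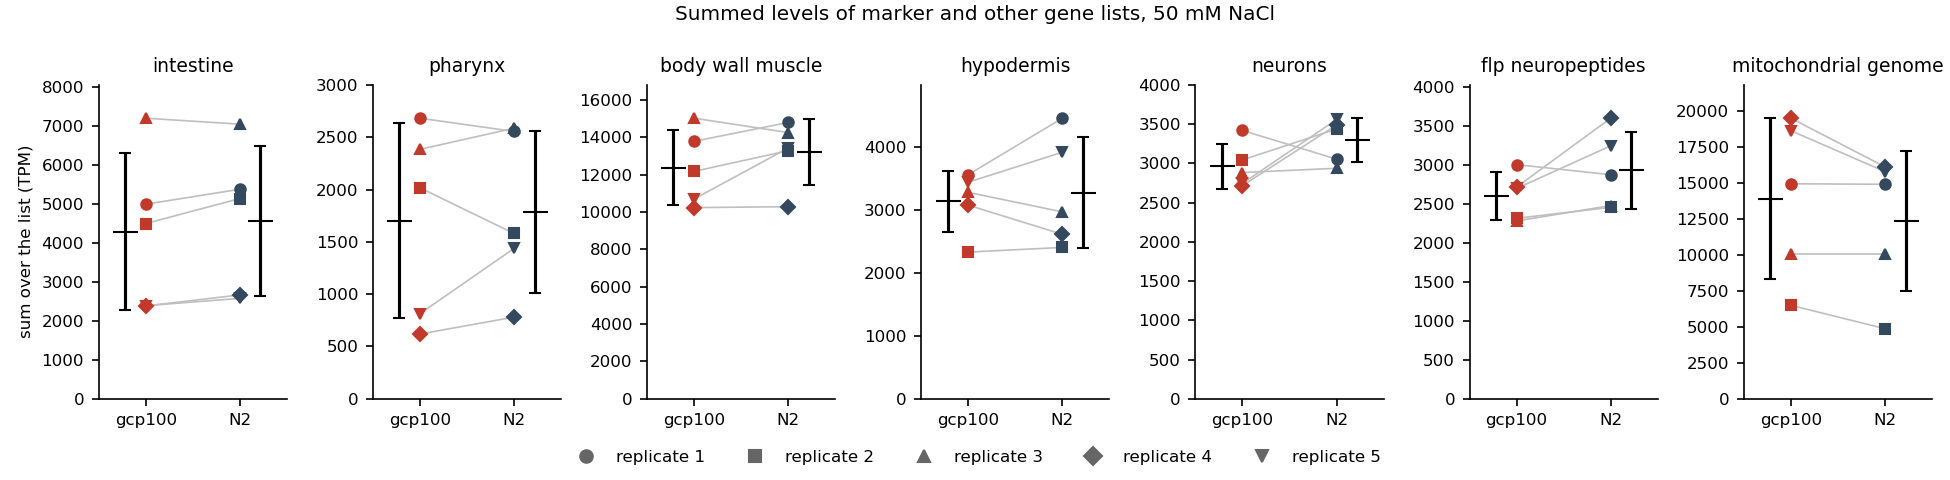
Summed TPM (y axis, own scale per panel) of the marker lists for intestine, pharynx, body wall muscle, hypodermis and neurons, of the neuropeptide genes and of the mitochondrial genome in gcp100 and N2 larvae at 50 mM. Points are libraries, symbols and grey lines give the replicate number, and bars are the mean and SD (n = 5 each); intestine sums were 2390 TPM or less in gcp100 replicates 4 and 5 and 2665 TPM or less in the same N2 replicates.

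With each strain's mean removed, the genes most like hrg-1 over the 10 libraries were C01G10.7 (r = 0.958), C34F6.7 (0.938), fem-2 (0.935), T03E6.8 (0.931) and umps-1 (0.929), of 10082 genes with a mean of at least 5 TPM. These values describe likeness over libraries that share replicate numbers, and the strain differences of the 5 genes lay between -0.18 and 0.01. The genes srw-85 (0.05, SE 0.13) and R11H6.5 (-0.12, SE 0.12), which mark strains elsewhere in the series, overlapped between gcp100 and N2.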

How the data were processed

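Values were taken from 1 table of TPM that the authors deposited for the whole series; 0 of its columns matched no sample. The submitters' processing notes name the builds WBcel235 and ce11, and bedtools; which aligner and counter made the TPM is not given in the sources used here. Per the labels' protocols the RNA fraction above 200 nucleotides was depleted of ribosomal RNA and made into strand-specific libraries. In the columns used here values stood up to 3 lines away from their gene names behind 3 reporter lines, and mars-1 and marb-1 stood elsewhere, so 20693 of 30467 lines were moved back. Across genes the correlation with the other 28 libraries was then 0.988, against 0.593 as deposited. The line of hrg-1 was not displaced. Of the gene IDs 28048 matched a symbol, and 11 names turned into dates took the symbol of their ID. Positions come from the Ensembl annotation of WBcel235.

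A gene was tested if 5 or more of the 10 libraries had at least 1 TPM. Values were fitted as log2(TPM + 1) in R 4.3.3 with limma 3.58.1 (variance trend, two-sided, Benjamini-Hochberg over all genes tested, threshold 0.05), after a test on simulated data. The main fit had no block. The replicate numbers were taken to pair the libraries, because deviations from the strain means correlated at 0.291 to 0.594 between libraries of the same number in all 5 pairs; 4 of 5 gcp100 libraries and 5 of 5 N2 libraries correlated best with their own number. Blocked values are therefore given beside the main ones for hrg-1, for the counts over all genes and for some other genes. For the remaining genes only values of the unblocked fit are given. Permutation tests were made in Python 3.11.15 with scipy 1.17.1 or by full enumeration. Alternatives were pseudocounts of 0.1 and 5, no filter, a filter at 5 TPM, rescaling by trimmed means of M values (TMM), a fit over both salt levels, no variance trend, protein-coding genes only, leaving out each library, and blocked fits with these changes or without 1 pair.

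Genes were named by rule: hrg-1 and the heme list, up to 10 genes per direction with the smallest p, a group mean of at least 5 TPM and no overlap, genes within 10 kb of hrg-1, F49E12.8, the yolk genes, 3 genes that mark strains, the 4 members of each list with the smallest p, and the 5 genes most like hrg-1. From these, members were described by role; list members not described singly are covered by the counts. Outside the rule, hsp-16.1, hsp-16.2, hsp-16.11, hsp-110, alg-2, F44E5.4, F44E5.5, F45D11.14, his-58, W01D2.1, myo-1 and myo-2 were named after their values were seen. Members, lists and tests were chosen with earlier results of these data known. A planned count of genes with a mir-85 seed match was not run, since no sequence was at hand.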

Additional observations from a re-analysis of the deposited data

Results flagged for a closer look

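The strain difference of hrg-1 was 1.21 higher on the log2 scale at 300 mM than at 50 mM. The permutation test of this gene alone, which assumes no strain difference at either level and ignores the replicate numbers, gave p = 0.0282 for this difference. Over all genes its limma adjusted p was 1.0. At 300 mM 5 of the 10 libraries stood apart from their groups, by a cutoff set after the data were seen. Without them the strain difference there was 0.49 in place of 0.90.

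Single libraries lay far from the other 4 of their strain in 9 of the 146 groups looked at, 73 genes in each of the 2 strains; chance flags about 1 in 20 groups. In gcp100 these were pash-1 in replicate 3 (2.61 TPM), hsp-16.11 in replicate 4 (89.5 TPM), and vit-2 (5.58 TPM) and vit-6 (4.89 TPM) in replicate 4. In N2 they were hrg-3 in replicate 3 (1.21 TPM), xrn-1 in replicate 2 (46.6 TPM), T28C12.8 in replicate 2 (5.33 TPM), R05D8.7 in replicate 3 (3.83 TPM) and vit-6 in replicate 2 (13.9 TPM).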

How the results depend on the processing

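The count of 0 genes past the threshold held under 24 of the 26 alternatives, and was 1 (H34I24.2) with a pseudocount of 0.1 and 1 with the replicate block and a pseudocount of 0.1. Counts within the gene lists and near hrg-1 were 0 in all 26, and hrg-1 kept its sign. At 300 mM the count was 0 in the 2 alternatives run there, with the block and without the libraries that stood apart. The count at an unadjusted p under 0.05 was 193, and 462 with no filter, 105 with the filter at 5 TPM, 41 with all 4 groups in 1 fit, 947 with the replicate block, 126 to 414 without 1 library and, with the block, 428 to 1329 without 1 pair. Of 1717 combinations of a named gene and an alternative, 1696 kept direction and side of the threshold and 19 turned the sign of an uncalled value near 0; the cause was not tested. With TMM rescaling alg-2 was at 0.013, and at 0.013 with the replicate block as well. Without pair 2 the blocked value of hrg-6 was 0.028, mop-25.1 was at -0.040 without pair 1 and -0.035 without pair 5, and srw-85 was at -0.027 without pair 4. Over fits without 1 library hrg-6 ranged from -0.16 to 0.084, mrp-5 from -0.26 to 0.031, mop-25.1 from -0.044 to 0.073, R02E12.5 from -0.019 to 0.32, alg-2 from -0.10 to 0.050 and srw-85 from -0.048 to 0.15. H34I24.2 missed the filter whenever 1 N2 library or 1 pair was left out, so of these fits only the 5 without a gcp100 library gave a value. It also missed the filter at 5 TPM. Unknown depth limits what can be said of genes near 1 TPM.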

Other observations

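Some genes varied far more between replicate numbers than between the strains. The histone H2B gene his-58 was listed at 0 in replicate 2 of both strains. In the other replicates it was at 166, 184, 64.9 and 21.1 TPM in gcp100, against 231, 184, 62.6 and 52.4 TPM in N2. W01D2.1 had 1683, 50.02, 854.6, 929.5 and 739.2 TPM in gcp100, against 1999.8, 34.7, 911.2, 779.3 and 702.8 TPM in N2, and the replicate number held 99.4% of its variation. The pharyngeal myosin gene myo-1 had 643, 546, 633, 13.97 and 70.7 TPM in gcp100, against 603, 439, 696, 73.4 and 243 TPM in N2, with replicates 4 and 5 low in both strains.

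Genes of growth and division gave small differences between the strains. The median was 0.00081 for 15 tested DNA replication genes, -0.08 for 31 proteasome genes, -0.08 for 10 germline genes, -0.03 for 5 embryonic regulators and 0.03 for 11 genes of molting and the apical matrix. No gene of these lists passed the limma test or had an unadjusted p under 0.05, and 1 proteasome gene had one with the replicate block. The 6 markers of the excretory cell and coelomocytes all had negative differences, of which 4 were negative after TMM rescaling, with a median of -0.18.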
